A study of Mus musculus with 6 samples.

Results

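Nucleoporins and nuclear transport receptors were examined in leukaemia-like mouse myeloid cells treated with an inhibitor of the histone methyltransferases G9a and GLP. The members were all genes whose array annotation gave exactly 1 symbol made of Nup, Kpna, Kpnb, Xpo, Ipo or Tnpo directly followed by a digit. The rule found 42 of the 19937 genes tested, on 52 probe sets: 20 nucleoporins, 7 karyopherins of the Kpna and Kpnb names, 7 importins (Ipo), 3 transportins (Tnpo) and 5 exportins (Xpo). Of these, 40 genes had 1 probe set and 2 (Kpna2 and Nup210l) had more, in which case the brightest was used. Some genes of the pore carry other names, so that Tpr, Pom121 or Ranbp2, for example, are not members.

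Both groups were mouse haematopoietic stem and progenitor cells made to express HoxA9 and Meis1 (called A9M), homeobox transcription factors that together transform such cells, grown with serum and the cytokines IL3, IL6 and SCF. One group of 3 samples had received DMSO, a solvent, and the other group of 3 samples UNC0638, a small molecule that blocks the methyltransferase activity of G9a (gene Ehmt2) and of its partner GLP (gene Ehmt1), both for 5 days. The sources used here give neither the dose nor the mouse strain, nor whether the cells were 1 clone or a pool. The replicates carry numbers, but nothing says that each came from its own culture, so a p-value here covers only the spread among these samples, and this spread may be technical.

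The nuclear pore complex is a large ring-shaped channel through the nuclear envelope. Its scaffold consists of outer rings, built from the Y complex, and an inner ring, while nucleoporins rich in phenylalanine-glycine repeats fill the channel. Filaments stand on the cytoplasmic side and a basket on the nuclear side. Transport receptors of the importin beta family carry cargo through this channel and bind the small GTPase Ran: importins release cargo when they meet Ran-GTP in the nucleus, and exportins pick it up there. Importin alpha proteins are adaptors that join the classical nuclear localisation signal to importin beta. Growing and dividing cells depend on this traffic for the import of histones and ribosomal proteins and for the export of ribosomal subunits, and the NUP98 gene is fused to HOXA9 in some human acute myeloid leukaemias.

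Stretches of 250 bases before the annotated gene start, taken from RefSeq on the GRCm38.p6 build, were available for 34 of the 42 members (41 stretches, since 7 genes had more than 1 start). Shown are those of Nup37 (the more upstream of its starts) and Kpnb1, the members with the smallest p in the comparison given after them, and those of Nup188, Tnpo2 and Nup54, which hold the E-box CACGTG and had an unadjusted p under 0.05. Capitals mark CACGTG and CCAAT, the latter read on either strand; each sequence runs 5′ to 3′ towards the gene.
Nup37 (chr10:88146742-88146991, plus strand): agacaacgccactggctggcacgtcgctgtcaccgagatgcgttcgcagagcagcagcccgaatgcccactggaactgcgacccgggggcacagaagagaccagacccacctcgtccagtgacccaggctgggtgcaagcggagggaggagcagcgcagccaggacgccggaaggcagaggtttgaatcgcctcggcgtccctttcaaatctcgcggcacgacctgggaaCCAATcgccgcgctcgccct
Kpnb1 (chr11:97187893-97188142, minus strand): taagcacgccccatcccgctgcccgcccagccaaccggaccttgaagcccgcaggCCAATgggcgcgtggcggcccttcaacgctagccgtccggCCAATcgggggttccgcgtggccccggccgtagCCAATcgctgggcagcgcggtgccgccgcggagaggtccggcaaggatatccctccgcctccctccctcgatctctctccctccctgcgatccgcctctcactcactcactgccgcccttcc
Nup188 (chr2:30286166-30286415, plus strand): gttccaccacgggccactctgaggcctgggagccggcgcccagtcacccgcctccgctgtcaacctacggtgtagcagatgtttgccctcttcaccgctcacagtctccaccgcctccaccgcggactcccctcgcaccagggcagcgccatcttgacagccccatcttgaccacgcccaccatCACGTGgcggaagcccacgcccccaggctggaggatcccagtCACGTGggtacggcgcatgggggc
Tnpo2 (chr8:85036643-85036892, plus strand): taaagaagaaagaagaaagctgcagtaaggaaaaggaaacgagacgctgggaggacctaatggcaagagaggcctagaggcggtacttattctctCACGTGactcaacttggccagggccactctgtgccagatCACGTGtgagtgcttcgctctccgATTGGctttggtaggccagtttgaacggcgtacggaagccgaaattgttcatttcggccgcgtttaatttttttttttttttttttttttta
Nup54 (chr5:92435200-92435449, minus strand): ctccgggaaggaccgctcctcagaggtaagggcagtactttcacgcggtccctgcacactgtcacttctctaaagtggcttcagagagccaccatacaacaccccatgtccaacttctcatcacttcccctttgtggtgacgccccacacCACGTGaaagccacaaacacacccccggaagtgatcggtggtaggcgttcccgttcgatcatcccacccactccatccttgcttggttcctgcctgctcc

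The E-box CACGTG, which is its own reverse complement and is the motif bound by Myc and related factors, was present upstream of 5 of the 34 members, or 14.7%. The same search found it for 6.86% of the 27025 genes with a promoter in the table and for 9.89% of the 9573 that are measured here and not among the dimmest 40%. The 5 members were Nup188 (starting 66 and 24 bases before the gene start), Tnpo2 (155 and 116, before the more upstream of its starts only), Nup54 (100), Ipo7 (137) and Nup93 (175). The pentamer CCAAT, searched on both strands, lay upstream of 19 of the 34 members (55.9%, against 37.5% of all genes in the table and 39.5% of the measured and brighter ones), among them 3 copies at Kpnb1 and 1 at Nup37. The letters GCATGCGC on either strand, the core of the motif of the factor NRF1, whose matches on both strands can overlap each other, were found for 4 members (11.8%, against 2.56% and 4.89%): Xpo5, Nup50, Nup62 and Nup107. The stretches of the members were richer in G and C than the rest, with a median of 64% against 52.4% over all stretches, and all 3 motifs were counted without regard to base composition. A match describes letters in this window and is not a measured binding site.

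Each gene was read as an intensity, the brightness of its probe set on the linear scale of the deposited table, and differences are of log2(intensity + 16), UNC0638 minus DMSO, so that negative values mean lower with UNC0638. A level is never set against that of another gene as an amount of RNA.

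With UNC0638, transcripts of the pore and of its receptors lay mostly below their DMSO level, by amounts that were small for each gene. Of the 42 members 37 had a negative log2 difference (88.1%, against 46.1% of all genes tested), and the median was -0.17, against 0.012 over all genes. After quantile normalization 36 members were below 0, with a median of -0.15, against -0.014 over all genes. With arrays centred on their medians 41 members were below 0. That scaling shifted every gene by -0.046, and the medians were then -0.22 for the members and -0.034 over all genes. The largest difference was that of the Y complex gene Nup37, which was 1.53-fold lower on that scale. In limma, with Benjamini-Hochberg adjustment over all 19937 genes, 0 of the 42 members passed the threshold of 0.05, where 0.672% of all genes did. These were 74 genes higher (0.371%) and 60 lower (0.301%), or 50 and 65 with each array centred on its median. At an unadjusted limma p under 0.05 lay 15 members (35.7%), all lower, against 6.21% of all genes that were lower at that p and 6.47% that were higher. A log2 difference of -0.25 or less was seen in 12 members, against 6.86% of all genes, and one of 0.25 or more in 0 members, against 6.2%. In 16 members (38.1%) all 3 UNC0638 arrays were below all 3 DMSO arrays, against 7.4% of all genes, and in 0 members were they all above, against 9.59%.

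**Figure D1:**
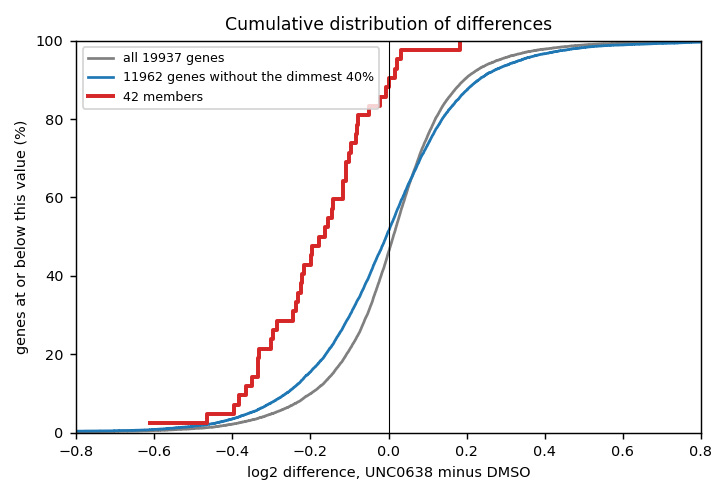
Cumulative distribution of the log2 difference (UNC0638 minus DMSO, x axis, cut at 0.8 on either side) as the percentage of genes at or below each value (y axis) for all 19937 genes, for the 11962 genes left without the dimmest 40%, and for the 42 members. The curve of the members runs to the left of both others, with 88.1% of members below 0 against 46.1% of all genes and 51.5% of the brighter genes.

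The members also stood to the low side of the brighter genes. Without the dimmest 40% of genes, 40 members stayed (Nup62cl and Kpna7 dropped out), 0 of them past the threshold, where 1.61% of genes were. Of the 11962 genes left 51.5% had a negative difference, 10.5% had all UNC0638 arrays below all DMSO arrays and 8.67% were lower at an unadjusted p under 0.05 in a fit on those genes. Of the 40 members, 16 and 12 met those last 2 criteria. The filter did not match brightness: the median DMSO mean was 623 over the 40 members and 176 over the 11962 genes. Single arrays moved the counts. Without DMSO 1, UNC0638 1 or UNC0638 2 the members lower at an unadjusted limma p under 0.05 numbered 8, 9 and 9 in place of 15. The share of all genes that were lower at that p was then 5.25%, 5.30% and 4.81%. Without UNC0638 3 the members with groups apart numbered 25 in place of 16. In that last setting 13.1% of all genes had the UNC0638 arrays below the DMSO arrays.

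These are bulk RNA samples, so fewer cells of a kind and less RNA per cell cannot be told apart, and other lists are given here beside the members. The cells carried the markers of their labelled type: 13 of 13 myeloid progenitor markers, such as Mpo, Elane, Kit and Cd34, were measured at mean DMSO intensities of 211 or more. Hoxa9 and Meis1, which these cells were made to express, are among the 13, so their levels do not bear on the cell type. Of these 13, 0 passed the test. Cd34 (0.27), Ptprc (0.25) and Itgam (0.46) had all UNC0638 arrays above all DMSO arrays, each at an unadjusted limma p under 0.05. Markers of mature cells were present with DMSO as well, so these levels do not single out progenitors. Mmp8 had a DMSO mean of 4474, Cd68 of 2691 and Cpa3 of 4232, though Mmp9 was at 23.3 and C1qa at 70.6. Of the markers of mature neutrophils 2 of 10 rose (Ltf and Cxcr2) and all 10 were above 0, and their summed intensity was 14708 to 15441 with DMSO and 16506 to 19659.6 with UNC0638. Of 8 macrophage markers 2 rose past the threshold (Gpnmb and Mpeg1, summed intensity of the list 5987 to 7528 and then 9379 to 9962). Of 7 markers of mast cells and basophils 1 did (Tpsb2, summed 7015 to 8101 and then 8787 to 9412). At an unadjusted limma p under 0.05, 5 neutrophil, 6 macrophage and 4 mast cell and basophil markers were higher, against 6.47% of all genes. On these lists 6, 6 and 3 markers had all UNC0638 arrays above all DMSO arrays, against 9.59% of all genes. The medians of these lists were 0.26, 0.49 and 0.30. Of 4 megakaryocyte markers 1 fell (Ppbp at -1.84, summed intensity of the list 1686 to 2361 and then 856 to 1068), Pf4 was at -0.66, and Itga2b (0.21) and Gp9 (0.029) were above 0. Of 11 proliferation markers 0 passed and 5 were lower at an unadjusted limma p under 0.05, against 6.21% of all genes. In 6 of the 11 all UNC0638 arrays were below all DMSO arrays, against 7.4% of all genes. The median difference was -0.19. Mki67 (-0.015) and Top2a (0.062) were near 0, however. The summed intensity of the list overlapped between the groups (19543 to 20624 with DMSO and 18506 to 20550.1 with UNC0638). Its brightest gene, Pcna (0.077), had means of 8429 with DMSO and 8920 with UNC0638 and weighed most in that sum. Markers of B cells (5 measured, summed 142 to 148 with DMSO and 159 to 178 with UNC0638), T and NK cells (5, 154 to 161 and 165 to 196), erythroid cells (4, 182 to 208 and 197 to 216) and stroma (6, 1121 to 1158 and 1130.3 to 1196) had 0 genes past the threshold. The B cell genes Cd79a, Ms4a1 and Ebf1 and the T and NK cell genes Cd3g and Ncr1 had DMSO means of 13.1 to 18.4. That is below the lower quartile of every array (20.9 to 22.8), so the sums of these lists rest partly on dim signals. In the stroma sum Pecam1 weighed most, with a DMSO mean of 823. The part of any of the marker lists in the members' differences was not tested.

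Among the outer ring genes of the Y complex, all 6 members had negative differences, with a median of -0.36. In 4 of 6 all UNC0638 arrays were below all DMSO arrays, against 7.4% of all genes. Nup37, a small propeller-shaped subunit that binds Nup160, had intensities of 334, 301 and 358 with DMSO and of 197, 184 and 258 with UNC0638. Every UNC0638 array lay below every DMSO array, with UNC0638 3 closest, and the log2 difference was -0.61 (SE 0.13, 95% interval -0.90 to -0.32, limma adjusted p = 0.0845, probe set 10365578). Nup133, a stalk subunit, was at 415, 407 and 393 in DMSO and 273, 319.6 and 332 in UNC0638. Its groups were apart as well, at -0.38 (SE 0.091, adjusted p = 0.12). Nup85, which lies in a short arm of the Y, was at 582, 497 and 436 and then at 368, 386 and 377. Here the UNC0638 arrays were close together and the DMSO arrays spread, and the difference was -0.40 (SE 0.11, adjusted p = 0.157).

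Nup160, the other large arm subunit, was at 898, 835 and 878 in DMSO and 639, 672 and 817 in UNC0638, the last of these just under the lowest DMSO array (-0.30 in log2, SE 0.10, adjusted p = 0.273). Nup43, another small propeller subunit, was at 626, 460.4 and 583 and at 391, 391 and 534, so that UNC0638 3 lay among the DMSO arrays (-0.34, SE 0.15, adjusted p = 0.409). Nup107, the partner of Nup133 in the stalk, overlapped between the groups, with means of 1056 ± 112 and 937 ± 155 (SD, n = 3 each, here and below) and a difference of -0.18 (SE 0.13, adjusted p = 0.67), or -0.035 without UNC0638 1 and -0.095 without DMSO 1. The 6 members of this complex thus ranged from -0.61 to -0.18. Its subunits with other names, Seh1l (-0.11), Sec13 (-0.068) and Ahctf1 (-0.16), are not members, and each had overlapping groups. The differences between subunits were not tested.

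**Figure D2:**
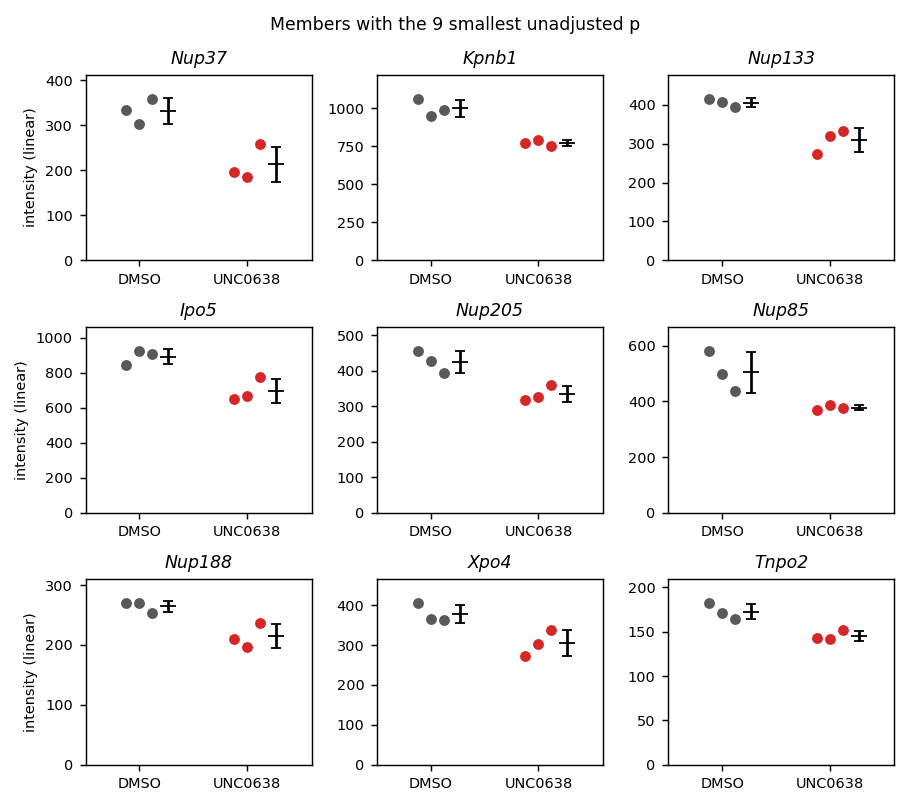
Intensity on a linear scale (y axis, from 0) of the 9 members with the smallest unadjusted p, with 1 point per array (3 DMSO, grey, and 3 UNC0638, red) and the mean with its SD as a bar at the side. In each of the 9 genes the 3 UNC0638 points lie below the 3 DMSO points, as for Kpnb1 with 750.1 to 794 against 950.3 to 1062.

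The 4 measured genes of the inner ring, which anchors the pore to the membrane and the channel, were all below 0 (median -0.26). Nup205, a large scaffold protein, was at 456, 428 and 394 in DMSO and 319, 325 and 361 in UNC0638 (-0.33 in log2, SE 0.089, adjusted p = 0.156). Its relative Nup188 was at 269.9, 269.7 and 254 and at 210.2, 197 and 236 (-0.29, SE 0.088, adjusted p = 0.211). Both had separate groups, as did 7.4% of all genes in that direction. Nup155, which anchors the ring at the membrane, had UNC0638 3, at 863, above the lowest DMSO array at 802, with a difference of -0.23 (adjusted p = 0.529), or -0.095 without UNC0638 1 and -0.35 without UNC0638 3. Nup93, the linker to the channel nucleoporins, was at -0.16 (690.2 ± 57.9 and 614 ± 48.04, adjusted p = 0.557).

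Of the 3 channel nucleoporins, Nup54 was at 414, 375 and 369 in DMSO and 315, 194 and 337 in UNC0638. Its second UNC0638 array was far below the others, and the difference of -0.47 had a wide interval of -0.88 to -0.055 (SE 0.18, adjusted p = 0.326); without UNC0638 2 it was -0.23. Nup62, which forms a complex with Nup54 and is rich in repeats, was at 3113, 2871 and 2411 and at 2072, 2731 and 2422, with overlapping groups (-0.22, SE 0.13, adjusted p = 0.569; -0.11 without UNC0638 1 and -0.14 without DMSO 1). Nup98, the gene of the leukaemia fusion, also gives rise to the scaffold protein Nup96 from the same transcript and was at 743 ± 83.3 and 699 ± 52.7 (-0.081, SE 0.10, adjusted p = 0.829).

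On the cytoplasmic side, Nup214 and its partner Nup88 both had separate groups with small differences. Nup214 was at 773, 767 and 741 in DMSO and 628, 631 and 726 in UNC0638 (-0.20, SE 0.085, adjusted p = 0.377), and Nup88 at 1076 ± 23.7 and 976 ± 72.9 (-0.14, adjusted p = 0.562). In the basket, Nup50, which helps to recycle importin alpha, was at 991, 1032 and 1002 and at 901, 806 and 933 (-0.20, SE 0.083, adjusted p = 0.375). Nup153 overlapped between the groups (-0.083, adjusted p = 0.762). Nup210, a membrane protein of the pore, was at 737, 739 and 591 in DMSO and at 578, 579 and 579 in UNC0638, so that its groups were separated only by the distance to DMSO 3 (-0.24, SE 0.10, adjusted p = 0.372).

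Nup210l and Nup62cl are relatives of Nup210 and Nup62. Nup62cl was at 10.1, 10.02 and 11.4 in DMSO and 10.6, 11.7 and 10.8 in UNC0638, below the lower quartile of every array (20.9 to 22.8), which leaves little room to see a change. The probe set used for Nup210l was at 88.2, 77.4 and 74.6 and at 78.7, 84.01 and 60.2 (-0.096, adjusted p = 0.819). The other 8 probe sets of Nup210l had differences from -0.026 to 0.22, with overlapping groups in each.

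**Figure D3:**
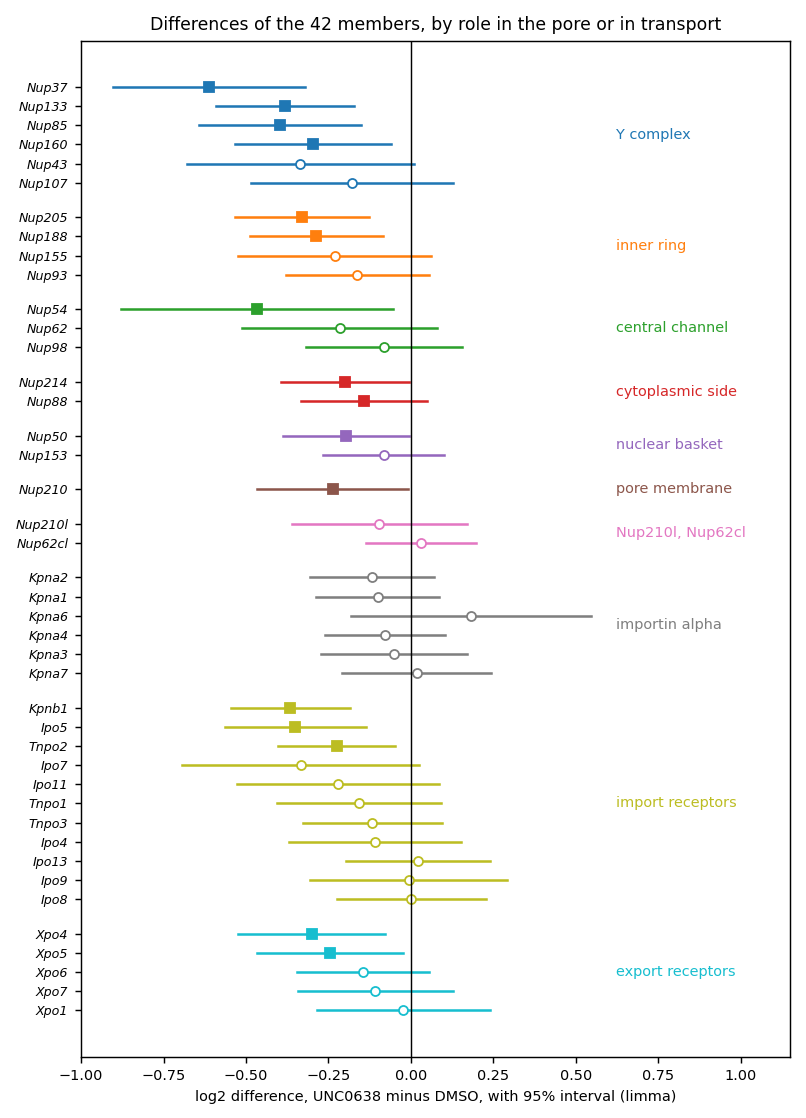
Log2 difference of each of the 42 members (x axis, UNC0638 minus DMSO) with its 95% interval from limma, grouped by role and coloured by it; filled squares mark the 16 genes whose groups do not overlap and open circles the others. In 15 members the interval lies below 0, in the other 27 it includes 0, and in none does it lie above.

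The 6 importin alpha adaptors differed least among the larger groups, with a median of -0.065, 0 at an unadjusted p under 0.05 and overlapping groups in all 6. Of all genes 12.7% lay under that p and 17% had separate groups, in either direction. Kpna2, the adaptor most tied to proliferating cells, was at 2717, 2437 and 2595 in DMSO and 2503, 2382 and 2252 in UNC0638 (-0.12, SE 0.083, adjusted p = 0.645). Its probe sets disagreed in size: the other 2 were at 0.0042 and -0.19, with overlapping groups in each. The gene table also lists a pseudogene, Kpna2-ps, so the signal of Kpna2 is uncertain to that extent. Kpna1 (-0.10), Kpna4 (-0.079) and Kpna3 (-0.051) were near 0, with 95% intervals that together span -0.29 to 0.17. Kpna6 had the highest difference of all members, 0.18 (95% interval -0.18 to 0.55, adjusted p = 0.725), which rested on 1 low DMSO array: its values were 370.1, 240.5 and 376 in DMSO and 383, 382 and 341 in UNC0638, and without DMSO 2 the difference was -0.018. Kpna7, an adaptor of oocytes and early embryos, was dim at 23.5, 20.02 and 26.4 and at 24.9, 26.6 and 19.9.

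Their partner Kpnb1, importin beta 1, the receptor of the classical import pathway, was among the most separated members. Its intensities were 1062, 950.3 and 988 with DMSO and 772, 794 and 750.1 with UNC0638. The spread within each group was small beside the gap, and the log2 difference was -0.37 (SE 0.079, 95% interval -0.55 to -0.19, adjusted p = 0.0926). Ipo5, a receptor for ribosomal proteins and histones, was at 842, 924 and 906 and at 649, 665 and 777, again with separate groups (-0.35, SE 0.093, adjusted p = 0.154). Ipo7, which shares cargo with Ipo5, was at 1186, 929 and 1356 and at 828, 818 and 1088. Its DMSO arrays varied so much that UNC0638 3 lay among them (-0.33, SE 0.16, adjusted p = 0.44; -0.21 without DMSO 3).

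The transportins carry RNA-binding proteins into the nucleus. Tnpo2 was at 182, 171 and 165 in DMSO and 142, 142 and 152 in UNC0638, with separate groups (-0.23, SE 0.078, adjusted p = 0.267), whereas Tnpo1 (-0.16, or -0.045 without UNC0638 2) and the receptor of serine-arginine splicing factors Tnpo3 (-0.12) overlapped. Ipo11, which carries ubiquitin-conjugating enzymes, was at -0.22 (adjusted p = 0.575; -0.11 without UNC0638 1 and -0.37 without UNC0638 3). Ipo4, a histone import receptor, was at 132, 119 and 117 and at 93.3, 117 and 129 (-0.11, adjusted p = 0.782). The histone H2A-H2B carrier Ipo9 (-0.0068, 95% interval -0.31 to 0.29), Ipo8 (0.0013, -0.23 to 0.23) and Ipo13 (0.022, -0.20 to 0.24), which carries cargo both ways, were close to 0 with signs that turned under other scalings. Of these intervals, that of Ipo9 leaves room for a difference of the size seen in Tnpo2, that of Ipo8 just reaches it, and that of Ipo13 does not. Over the 11 import receptors of this family the median was -0.16, with 3 lower at an unadjusted p under 0.05, against 6.21% of all genes.

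Among the 5 exportins all differences were negative (median -0.14), except that Xpo1 was at 0.020 after quantile normalization. In 2 of the 5 all UNC0638 arrays were below all DMSO arrays, against 7.4% of all genes. Xpo4, which exports the translation factor eIF5A, was at 405, 365 and 363 in DMSO and 272, 302 and 338 in UNC0638 (-0.30, SE 0.098, adjusted p = 0.238). Xpo5, the exporter of microRNA precursors, was at 337, 394 and 329 and at 309.9, 271 and 304 (-0.25, SE 0.097, adjusted p = 0.336). The actin exporter Xpo6 (-0.14) and Xpo7 (-0.11) overlapped between the groups. Xpo1, the main exporter of proteins with leucine-rich signals and the target of the drug selinexor, was at 1879, 1514 and 2016 in DMSO and 1782, 1652 and 1857 in UNC0638. Its groups overlapped fully (-0.023, 95% interval -0.29 to 0.24, adjusted p = 0.967).

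By name, the 20 nucleoporins had a median of -0.22, with 10 lower at an unadjusted limma p under 0.05 and 11 with separate groups. The 22 receptors had a median of -0.11, with 5 and 5. Of all genes 6.21% were lower at that p, and 7.4% had all UNC0638 arrays below all DMSO arrays. The difference between nucleoporins and receptors was not tested.

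The members shared a pattern over the arrays. Relative to the DMSO mean, the median over the 42 members was 0.048, -0.045 and -0.0059 with DMSO and -0.25, -0.19 and -0.067 with UNC0638, while the median over all genes stayed between -0.0095 and 0.025 on every array. The lowest of the 6 values of a member was on UNC0638 1 for 19 members, on UNC0638 2 for 13 and on UNC0638 3 for 5. DMSO 2 was the lowest array for 4 members and DMSO 1 for 1, and DMSO 1 held the highest value for 21. For the members UNC0638 3 thus stood nearest to DMSO: 21 were below all DMSO arrays there, against 30 on each of the other 2. The members' median difference was -0.22 without UNC0638 3 and -0.13 without UNC0638 1. The counts per array were made for the members only, so no share of all genes stands beside them. The limma array weight rates how closely an array follows its group over all genes. UNC0638 3 had the lowest, 0.77, against 0.98 to 1.18 on the other arrays. Members were measured on the same arrays and are not independent of each other.

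**Figure D4:**
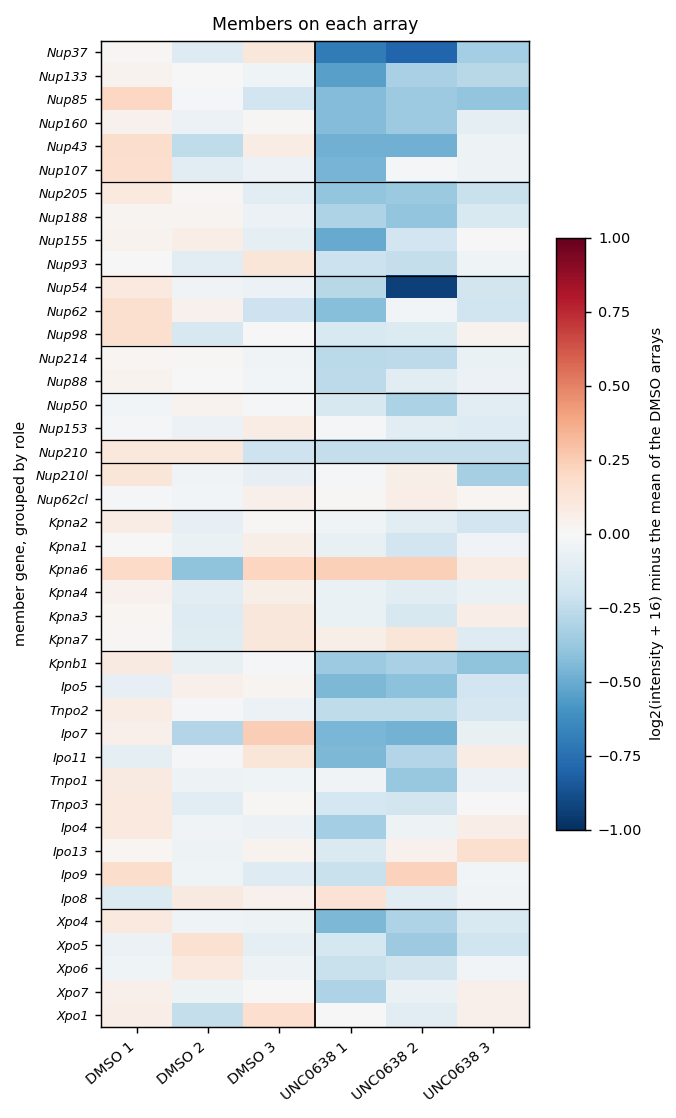
Each of the 42 members (rows, grouped by role with lines between roles) on each of the 6 arrays (columns), coloured by log2(intensity + 16) minus the mean of the DMSO arrays for that gene (blue lower, red higher). The columns of UNC0638 1 and 2 are mostly blue (medians -0.25 and -0.19), that of UNC0638 3 is paler (-0.067), and the row of Kpna6 shows its low value on DMSO 2.

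Genes of the same traffic that carry other names were read from lists of known function. Of the 40 measured 0 passed the threshold, where 0.672% of all genes did. A negative difference was seen in 38, against 46.1% of all genes. They were 37 after quantile normalization, and 39 with arrays centred on their medians, which shifts all genes down. At an unadjusted limma p under 0.05, 15 of the 40 were lower and 0 higher, against 6.21% and 6.47% of all genes. Of 11 further pore genes, all 11 were below 0 (median -0.20). The largest differences were those of Aaas, for the protein aladin (602 ± 69.3 to 467 ± 67.4, -0.36, adjusted p = 0.288) and the membrane anchor Pom121 (457 ± 44.6 to 360.4 ± 24.4, -0.33, adjusted p = 0.194). Of 10 other receptors and adaptors 9 were below 0 (median -0.22). Nxt1, the small partner of the mRNA export receptor Nxf1, was at 596 ± 12.7 and 439.5 ± 37.3 (-0.43, SE 0.085, adjusted p = 0.0774), and Xpot, the tRNA exporter, at 491 ± 29.8 and 369.8 ± 24.5 (-0.39, SE 0.086, adjusted p = 0.0971). Nxt2 was at 0.22 (adjusted p = 0.682).

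In the Ran cycle, which powers the receptors, all 6 genes were below 0 (median -0.19). Rangrf, a Ran-binding protein gene, was at -0.49 (326 ± 50.8 to 226 ± 11.4, adjusted p = 0.12); it was the 1 related gene that passed in any alternative, without DMSO 1 (-0.62, adjusted p = 0.0479), and its adjusted p over all 19937 genes did not pass otherwise. Rcc1, the exchange factor that loads Ran with GTP, was at 271 ± 8.38 and 205 ± 24.3 (-0.38, adjusted p = 0.133), and Ran itself, added for its role, at 2383 ± 32.1 and 2213 ± 50.5 (-0.11, adjusted p = 0.632). Of 17 genes of mRNA export, 16 were below 0 (15 and 17 under those scalings, median -0.16), with Thoc5, of the complex that couples transcription to export, at -0.34 (adjusted p = 0.26); 4 of the 17 also stand in the lists above.

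**Figure D5:**
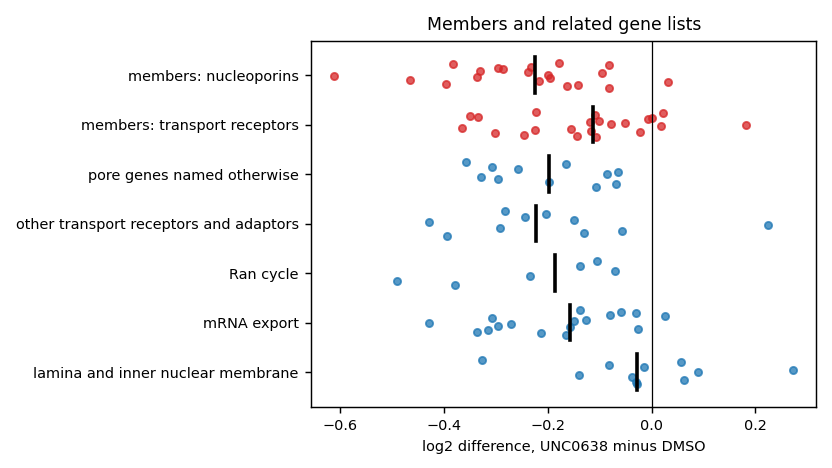
Log2 difference (x axis, UNC0638 minus DMSO) of each gene (points) in the members, split into 20 nucleoporins and 22 transport receptors (red), and in 5 lists of related genes (blue), with the median of each as a black bar. The medians of the transport lists lie between -0.22 and -0.11, and that of the lamina list at -0.027.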

How the data were processed

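RNA extracted with Trizol was made into biotinylated cRNA and hybridised to Affymetrix arrays, per the labels' protocols. The authors deposited 1 processed intensity per probe set for 6 arrays, on a linear scale with array medians of 50.4 to 54.9; the sources used here do not state the summarisation, background correction or scaling, which could shrink differences of dim probe sets. Depth has no counterpart here; the 3 arrays per group limit the precision. Of 34760 probe sets, 21640 carry 1 symbol, 1321 several and 11799 none in the platform's annotation, and the probe set with the highest mean was kept per gene. Symbols were looked up by Entrez number in a GRCm38.p6 gene table (21553 found, 0 changed), used for names only.

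Intensities were transformed as log2(value + 16), which understates changes of dim genes, and folds are on that scale. The difference UNC0638 minus DMSO was fitted with limma 3.58.1 under R 4.3.3 (lmFit and eBayes, group alone, all 6 arrays) and adjusted by Benjamini-Hochberg over 19937 genes at a threshold of 0.05. The procedure was tested on simulated data. The members and lists were chosen with earlier results of these data known, and no list was tested. Array values are given for the 16 members with the smallest p and the 4 brightest and 4 dimmest, and for further members singled out after their values were seen; from related lists, the largest differences are named. Protein sequences were not used here. The motifs CCAAT and GCATGCGC were added after the data were seen. Alternatives were other pseudocounts (1 and 64), scalings, filters, choices of probe set, priors, a replicate block, array weights, a threshold of 0.01 and each array left out in turn. Figures were drawn with matplotlib 3.10.9.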

Additional observations from a re-analysis of the deposited data

How the results depend on the processing

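In all 17 alternatives 0 of the 42 members passed the threshold; the lowest adjusted p of a member was 0.0526, for Nup37 without the dimmest 40% of genes. The members' median difference stayed within the spread between arrays of a group, from -0.22 to -0.13 over the arrays left out in turn. All genes past the threshold numbered 134, and 49 with a pseudocount of 64, 18 at a threshold of 0.01, 73 with the replicate block and 10 to 69 without single arrays. The block changed no call of a member, and same-numbered arrays did not deviate together over the genes (r = -0.066, 0.11 and 0.017), so the numbers were not treated as pairs. Related genes past the threshold numbered 0 to 1 without single arrays. Members lower at an unadjusted limma p under 0.05 then numbered 8 to 18, against 4.81% to 6.67% of all genes. Members with separate groups numbered 16 to 25, against 11.1% to 13.1% of all genes with the UNC0638 arrays below the DMSO arrays. Of the 42 members 32 kept their sign in every alternative. The other 10, none of them past the threshold, lay near 0 or turned on 1 array. Leaving out 1 array gave -0.17 to 0.021 for Nup210l, -0.018 to 0.288 for Kpna6, -0.12 to 0.0049 for Kpna3, -0.044 to 0.090 for Kpna7, -0.20 to 0.0066 for Ipo4, -0.049 to 0.10 for Ipo13, -0.12 to 0.10 for Ipo9, -0.071 to 0.054 for Ipo8 and -0.14 to 0.062 for Xpo1. Centring each array on its median gave -0.015 for Nup62cl, -0.029 for Kpna7, -0.024 for Ipo13 and -0.045 for Ipo8. Quantile normalization gave -0.026 for Kpna7, 0.015 for Ipo9 and 0.020 for Xpo1, array weights -0.000242 for Ipo13, and the mean of its probe sets 0.026 for Nup210l. The centring moved every gene alike, by -0.046, and the cause of the other moves was not tested. Signals near the lower quartile of the arrays, as for Nup62cl and Kpna7, limit what could be seen.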

Other observations

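The nuclear lamina and inner nuclear membrane, which adjoin the pore, were read from a list of 11 genes, with a median log2 difference of -0.027 and 0 genes past the limma threshold. At an unadjusted p under 0.05 lay 1 lower and 1 higher gene of the 11, against 6.21% and 6.47% of all genes. Banf1, which tethers chromatin to proteins of the inner membrane, was at 1116 ± 82.8 in DMSO and 887 ± 68.03 in UNC0638 (SD, n = 3 each, log2 difference -0.33, adjusted p = 0.176). Lemd3, an inner membrane protein that binds it, was at 355 ± 19.5 and 434 ± 59.7 (0.27, adjusted p = 0.334). Both had separate groups, as did 17% of all genes in either direction. The lamin genes Lmnb1 (-0.14), Lmnb2 (-0.038) and Lmna (0.089), the receptor gene Lbr (-0.083) and the bridging proteins Sun1 (0.063) and Sun2 (-0.029) overlapped between the groups, as did Emd (0.057), Lemd2 (-0.014) and Tmpo (-0.027), the other nuclear membrane proteins of the list. Whether this list differs from the members was not tested.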
